A study of Homo sapiens with 3 samples.

Results

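Eukaryotic mRNA is taken apart by a small set of machines, and the 29 genes described here code for their parts. The poly(A) tail is first shortened by deadenylases (the PAN2 and PAN3 nuclease and the CCR4-NOT complex), the cap is then removed by DCP2 with its activators, and the body is digested by the exonuclease XRN1 from the cap end or by the exosome from the tail end. Nonsense-mediated decay, run by UPF and SMG proteins, sends mRNAs with premature stop codons into the same machines, and RNA-binding proteins of the ZFP36 family or ELAVL1 choose which mRNAs are destroyed or spared by binding AU-rich stretches in them.

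The genes were taken as a named list and located by their RefSeq spans on GRCh38.p14, whose coordinates are those of the hg38 build the deposited peaks use. All 29 were found, out of 20033 protein-coding genes on chromosomes 1 to 22, X and Y. A peak was counted for a gene when its centre lay inside the gene span, which gave 64 of the 21031 deposited peaks. The peaks come from eCLIP, which uses ultraviolet light to link a protein to the RNA it touches, pulls the protein down and sequences the RNA fragments held by it. HA-tagged mouse Pxr had been transfected 24 h earlier into LS174T, an established line from a human colon adenocarcinoma. Pxr is the pregnane X receptor, a ligand-activated transcription factor that responds to drugs and bile acids. The study had 2 libraries of the PXR immunoprecipitate (replicates 1 and 2) and 1 input library, all from transfected cells, and the labels name no untransfected or empty-vector group. The protocol lists antibodies to PXR, to HA and a control IgG without saying which library used which.

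A single peak list of the immunoprecipitate was analysed, without values of single libraries, so replicate error could not be given for any value and no test against the input was made. The total depth of each library is unknown here. Each peak carries the authors' fold, which divides summit reads plus 1 by local background reads plus 1. Reads at the summit and reads in the 10 kb around it were recovered from the fold and the deposited −log10 p. Summit reads were sought among whole numbers, and the reads in 10 kb then came out within 0.05 of a whole number for all 64 peaks. Intervals on reads are exact Poisson intervals at 95% and cover counting error only. No expression values were used, so a high RNA level and strong crosslinking cannot be told apart in any value here. Of 7 epithelial markers 6 had a peak, all but KRT20, and of 6 markers of blood, connective tissue, vessel and liver cells (PTPRC, CD3E, COL1A1, VIM, PECAM1 and ALB) none had one. The share over all protein-coding genes was 41.6%, and with so few markers the counts are a description only. Many of the decay gene peaks with high folds began just inside the gene, so the DNA at those starts is shown here, on the strand of the gene, from 70 bases before the start listed in RefSeq (GRCh38.p14) to base 30 of the transcript, with the transcribed bases in capitals. The genes shown are those with a peak within 1000 bases of the start of the gene span at a fold of 8 or more, in order of fold.
EXOSC3, chr9:37785035-37785134, minus strand: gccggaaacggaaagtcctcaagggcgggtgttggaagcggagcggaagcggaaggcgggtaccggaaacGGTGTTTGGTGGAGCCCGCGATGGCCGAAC
DCP1B, chr12:2004428-2004527, minus strand: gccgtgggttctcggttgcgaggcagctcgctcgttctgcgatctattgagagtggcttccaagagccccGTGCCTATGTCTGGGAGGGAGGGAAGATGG
SMG1, chr16:18926379-18926478, minus strand: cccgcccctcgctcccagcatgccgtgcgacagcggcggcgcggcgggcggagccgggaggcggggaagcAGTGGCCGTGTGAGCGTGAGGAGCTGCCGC
UPF1, chr19:18831889-18831988, plus strand: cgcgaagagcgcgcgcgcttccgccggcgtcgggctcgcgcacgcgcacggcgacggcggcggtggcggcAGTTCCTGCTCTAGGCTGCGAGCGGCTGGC
CNOT6, chr5:180494309-180494408, plus strand: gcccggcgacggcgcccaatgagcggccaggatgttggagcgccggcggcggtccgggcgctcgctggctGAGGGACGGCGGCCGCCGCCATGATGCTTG
UPF3B, chrX:119852934-119853033, minus strand: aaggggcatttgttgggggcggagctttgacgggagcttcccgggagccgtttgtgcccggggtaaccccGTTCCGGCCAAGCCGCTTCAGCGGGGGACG
PAN3, chr13:28138475-28138574, plus strand: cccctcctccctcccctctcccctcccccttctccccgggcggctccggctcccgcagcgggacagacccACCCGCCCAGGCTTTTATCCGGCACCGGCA

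These stretches are rich in G and C, from 61.0% in DCP1B to 79.0% in SMG1 and UPF1. Over the full windows of 250 bases before to 50 after a start, 40 windows of 25 of the decay genes had a median of 64.7% G and C, against 62.3% in 22198 windows of coding genes. The upstream edge of the peak lay 23 bases inside the listed start in DCP1B, 27 in UPF3B, 48 in SMG1, 59 in EXOSC3, 60 in UPF1 and 117 in CNOT6. In PAN3 it lay 40 bases upstream of the listed start. The stretches printed for EXOSC3, SMG1, UPF1 and CNOT6 thus hold no base of the peak, and those of DCP1B and UPF3B only a few. The G and C content and the motifs given here describe the DNA around starts and not the crosslinked RNA. PXR and related nuclear receptors are known to bind DNA at repeats of short motifs, of which 6-base forms were searched on both strands. The motif AGTTCA (on the other strand TGAACT) was in 0 of the 40 windows (Wilson interval 0 to 8.76%, or up to 7.50% by a limit of 3 counts) and in 8.66% of all coding windows, a share inside the Wilson interval. Several windows come from the same gene, so the 40 are not independent. The motif AGGTCA (on the other strand TGACCT) was in 4 of 40 windows (10.0%, Wilson interval 3.96 to 23.1%), those of EDC3, EDC4, SMG6 and ZFP36L1, and in 11.9% of all. Neither motif was found in the windows of the genes printed above.

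Nearly all of the decay genes had a peak, and their peaks resembled those of coding genes at large in fold and depth. Of the 29 genes, 27 had at least 1 peak (93.1%, Wilson interval 78.0 to 98.1%), and CNOT2 and XRN1 had none. The share over all protein-coding genes was 41.6%, which includes genes that the cells may not transcribe. The median fold was 5.65 (binomial interval of the median 5.12 to 6.35) over the 64 peaks, against 5.93 (5.88 to 5.96) over the 19265 peaks in coding genes. The median summit held 21.5 reads (16 to 26) in the decay genes and 22 (21 to 22) in all coding genes. A fold of 10 or more was reached by 6 of the 64 peaks (9.38%, Wilson interval 4.37 to 19.0%), where the share over all coding-gene peaks was 11.6%. For these medians and for this share of high folds, the interval in the decay genes holds the value of coding genes at large. The genes were chosen with earlier results of these data known, so the share of genes with a peak is a description only. The quartiles of fold were 4.86 and 6.68 in the decay genes and 4.77 and 7.65 in all coding genes.

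The number of peaks varied from gene to gene. SMG1 held 7, CNOT1 and SMG5 held 6 each, PAN3 held 5, and UPF1 and SMG6 held 4 each. UPF2 and ELAVL1 held 3 each, 7 genes held 2 and 12 held 1. The median of 2 peaks for a gene with any peak was the same as over all 8327 coding genes with one. Per 10 kb of gene the 29 genes had 0.343 peaks (Poisson interval 0.264 to 0.437), against 0.156 over all 20033 coding genes, with or without a peak. The interval takes the peaks of a gene as independent, which they may not be. Since the genes were chosen with earlier results known, the 0.343 and 0.156 are given as a description only. Over genes with a peak alone, the number per 10 kb was 0.396 in the 27 decay genes and 0.332 in coding genes. Across the 29 genes the number of peaks and the gene length had a Spearman rho of 0.19, given as a description, since all counts come from the same list. The longest gene, SMG6 at 243947 bases, had 4 peaks, while ZFP36 at 2561 bases had 2.

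**Figure D1:**
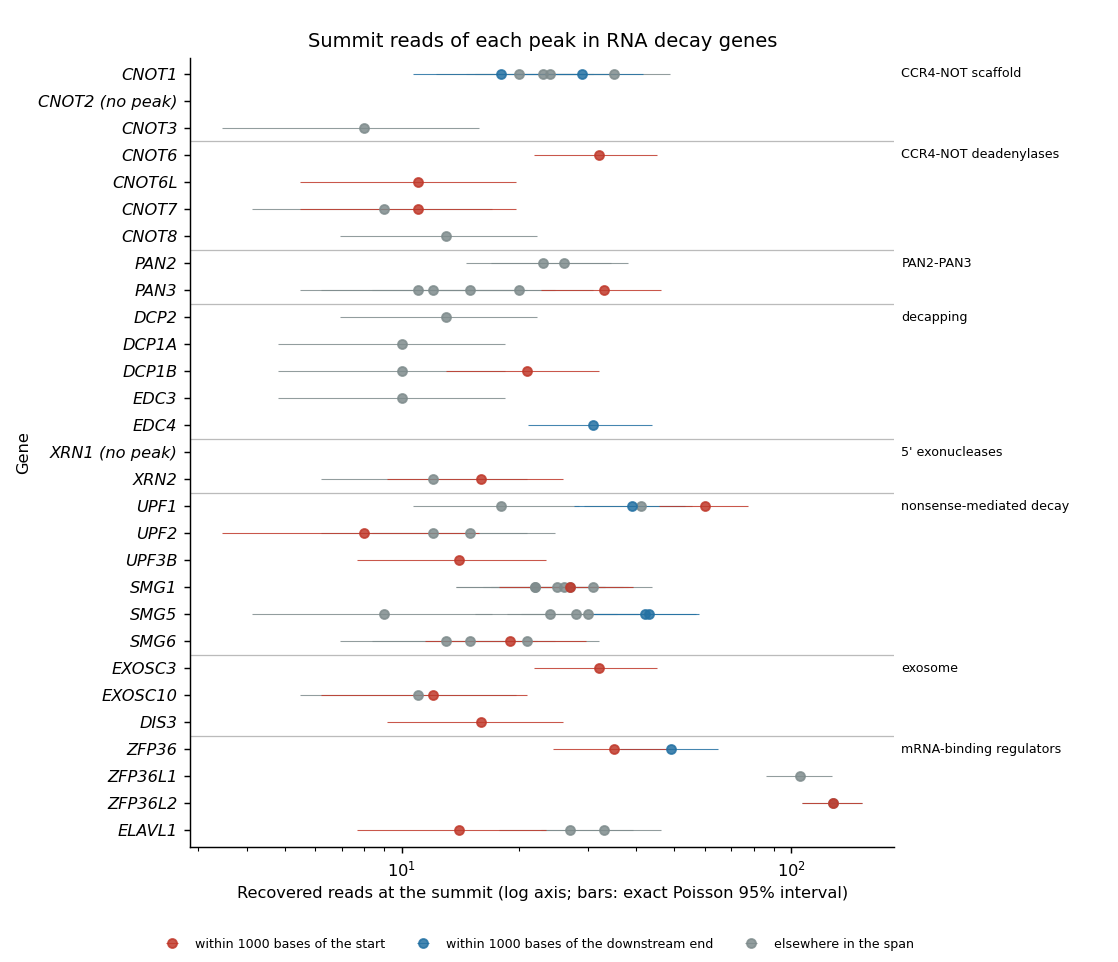
Recovered reads at the summit of each of the 64 peaks (log axis), by gene and role, with exact Poisson intervals at 95%. Red points lie within 1000 bases of the start of the gene, blue points within 1000 bases of its downstream end, and for CNOT1, CNOT7, ZFP36L2 and ELAVL1 the start was taken from the strand of the peaks. Summits reach 128 reads in ZFP36L2, where both points coincide, and 105 in ZFP36L1, and CNOT2 and XRN1 have no point.

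The CCR4-NOT complex is the main cytoplasmic deadenylase. Its scaffold subunit CNOT1, on which the other subunits assemble, had 6 peaks, all on the minus strand. The deepest, at chr16:58551514-58551756, held 35 reads (24.4 to 48.7) of 180 in its 10 kb, at a fold of 7.83. The other 5 summits held 18, 20, 23, 24 and 29 reads at folds of 4.13 to 6.47, so the Poisson intervals of all 6 overlap. The peaks of 18 and 29 reads were also centred in SETD6, which is listed on the plus strand. CNOT3, a regulatory subunit that pairs with CNOT2, had 1 peak at chr19:54148418-54148625, with 8 reads (3.45 to 15.8) of only 17 in its 10 kb and a fold of 6.72. It lay on the strand of CNOT3 and also inside the noncoding gene LOC102724273, listed on the opposite strand. CNOT2 had no peak centre in its 111976 bases, and the nearest peak on either strand was 28210 bases away. A gene without a peak may be too shallow for the caller, so its absence is not read as a lack of crosslinking.

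The catalytic subunits of CCR4-NOT come as paralogue pairs, CNOT6 with CNOT6L and CNOT7 with CNOT8. CNOT6 had 1 peak, at chr5:180494496-180494888, centred 313 bases inside the start of the gene, with 32 reads (21.9 to 45.2) of 105 and a fold of 10.6. Its paralogue CNOT6L also had 1 peak at the same place in the gene, 367 bases from the start, but with 11 reads (5.49 to 19.7) of 54 and a fold of 5.77. The Poisson intervals of the pair do not overlap. CNOT7 had peaks of 11 and 9 reads at folds of 6.67 and 5.21, each 200 bases wide, the smallest width in the list. CNOT8 had 1 peak of 13 reads (6.92 to 22.2) at a fold of 5.65, centred 1246 bases before its downstream end. Apart from CNOT6, the catalytic subunits had summits of 9 to 13 reads, which lie below the median of coding-gene peaks.

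PAN2 and PAN3 form the nuclease that begins the shortening of long tails, with PAN2 as the enzyme and PAN3 as the adaptor. PAN3 had 5 peaks spread over its 157143 bases. The deepest was the one at the start, chr13:28138505-28139159, with 33 reads (22.7 to 46.3) of 142 and a fold of 8.85. This peak also lay inside PAN3-AS1, listed on the opposite strand from the peak. The other 4 held 11, 12, 15 and 20 reads. PAN2, with a span of 17065 bases, had 2 peaks. The first, at chr12:56332728-56333168 and 1052 bases from the start, held 23 reads (14.6 to 34.5) of 78 at a fold of 9.38, and the second held 26 reads (17.0 to 38.1) of 227 at a fold of 4.87. The summits of PAN2 are alike in depth, and it is the reads around them that differ.

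The decapping genes had mostly shallow peaks, with 6 peaks over 5 genes and a median of 11.5 reads. DCP2, the enzyme that removes the cap, had 1 peak of 13 reads (6.92 to 22.2) at a fold of 4.90. DCP1A, its activator, had 1 of 10 reads (4.80 to 18.4) at a fold of 4.01, also inside the noncoding gene LOC107986087. DCP1B, the paralogue of DCP1A, had a peak at its start, chr12:2004152-2004434, with 21 reads (13.0 to 32.1) of 48 and a fold of 11.2, and another of 10 reads at a fold of 4.91. The start peak also lies inside the calcium channel gene CACNA1C, but CACNA1C is listed on the plus strand and the peak is on the minus strand, that of DCP1B. The scaffold protein gene EDC4 had the deepest summit of the group, 31 reads (21.1 to 44.0) of 268, at chr16:67884057-67884480, 231 bases before its downstream end. EDC3, an enhancer of decapping, had 1 peak of 10 reads (4.80 to 18.4) at a fold of 6.25, 24564 bases inside a span of 65467. The interval of EDC4 lies above those of DCP1A and EDC3 but overlaps that of DCP2, and the interval of the DCP1B start peak overlaps those of all the others.

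Of the exonucleases that digest decapped RNA, the cytoplasmic XRN1 had no peak and the nuclear XRN2 had 2. XRN1 spans 141428 bases, and the nearest peak lay 4945 bases outside its span with 9 reads at a fold of 5.95. XRN2, which also acts in ending transcription, had a peak at its start, chr20:21303467-21304096, with 16 reads (9.15 to 26.0) of 67 and a fold of 7.26. A second one near the other end held 12 reads (6.20 to 21.0) at a fold of 5.65. The intervals of these summits overlap.

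Genes of nonsense-mediated decay held 25 of the 64 peaks, on spans that add up to 614863 bases. Per 10 kb this was 0.407 peaks, against 0.343 (Poisson interval 0.264 to 0.437) over all 29 decay genes. All 6 genes had at least 1 peak, where the share over all protein-coding genes was 41.6%. UPF1, the RNA helicase at the centre of the pathway, had the deepest summit outside the ZFP36 family, 60 reads (45.8 to 77.2) of 234 at chr19:18832019-18832588, with a fold of 10.7 and a −log10 q of 40.5. Its other peaks held 18, 41 and 39 reads at folds of 3.17, 4.63 and 4.44. The peak of 39 reads lay within 1000 bases of the downstream end and that of 41 reads 1399 bases from it, so UPF1 had peaks at both of its ends. The fold of 3.17 was the lowest of the 64.

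UPF2 and UPF3B, which join UPF1 to the exon junction complex, had shallower summits than the start peak of UPF1. UPF2 had peaks of 8, 12 and 15 reads, all in the first 14007 bases of a span of 123149. Its peak of 12 reads, at chr10:12035100-12035359, held 46.2% of the 26 reads in its 10 kb. UPF3B had 1 peak, at its start, chrX:119852639-119852936, with 14 reads (7.65 to 23.5) of 33 and a fold of 9.04. Few reads lay around these summits, and folds near 9 here rest on 12 and 14 reads.

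SMG1, the kinase that phosphorylates UPF1, had a peak at its start, chr16:18925818-18926360, with 27 reads (17.8 to 39.3) of 79 and a fold of 10.9. The other 6 held 22 to 31 reads, and 4 of them were centred between 78917 and 90445 bases from the start. Within SMG1 the depth was thus even, and the fold was higher at the start, where fewer reads surrounded the summit. The table lists 7 SMG1 pseudogenes on chromosome 16, of which 5 had peaks, 10 in all, with 7 to 29 reads. SMG1 and these copies are near-identical over long stretches, so the origin of reads in either is uncertain.

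SMG5 is an adaptor that brings decay factors to phosphorylated UPF1, and SMG6 is the endonuclease of the pathway. SMG5 had 5 peaks on its own strand and 1 on the other. Those on its strand held 30, 24, 28, 42 and 43 reads from start to end, with the last 2 only 76 bases apart at the downstream end. The peak at chr1:156282513-156282752, 8884 bases from the start of the span, had a fold of 10.6 from 30 reads (20.2 to 42.8) of 96, and its upstream edge lay 73 bases inside another start that RefSeq lists for SMG5. The peak on the plus strand, at chr1:156285377-156285628, held 9 reads (4.12 to 17.1) and lies inside TMEM79, which is listed on that strand. SMG6 had peaks of 19, 15 and 21 reads in the first 4768 bases of its span and 1 of 13 reads, 1058 bases from the other end, with 0 in the 237889 bases between. The first of these also lies in SRR and the last in HIC1.

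The exosome degrades RNA from the tail end. EXOSC3, a cap subunit of its core, had the highest fold of the 64 peaks, 11.8, at chr9:37784653-37785005, from 32 reads (21.9 to 45.2) of 90. It is a short gene of 5379 bases, and this was its only peak. EXOSC10, the nuclear exonuclease subunit, had 2 narrow peaks of 12 and 11 reads, 152 and 1838 bases from its start, at folds of 7.39 and 6.67. The peak of 12 reads was also centred in EXOSC10-AS1. DIS3, the catalytic subunit, had 1 peak at its start, chr13:72781510-72781804, with 16 reads (9.15 to 26.0) of 60 and a fold of 7.73. The 4 exosome peaks had a median fold of 7.56, and 3 of them lay within 1000 bases of the start. Over all coding-gene peaks with a listed strand, 25.5% lay there, and those start peaks had a median fold of 7.47. Of 8 further EXOSC genes, 5 had a peak, where the share over all protein-coding genes was 41.6%. EXOSC5 reached a fold of 7.93 and EXOSC6 one of 2.92, both with a peak near the start. EXOSC8 reached 4.98 and EXOSC9 reached 6.36, neither with a peak near the start.

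The regulators ZFP36, ZFP36L1 and ZFP36L2 are CCCH zinc finger proteins that bind AU-rich elements and bring CCR4-NOT to the mRNA, and ZFP36L1 and ZFP36L2 held the deepest summits of the 64. ZFP36L2 had 128 reads (106.8 to 152.2) at each of its 2 summits, at chr2:43226196-43226577 and chr2:43224026-43225679, of 1129 and 1132 reads in their 10 kb. ZFP36L1 had 1 peak, chr14:68788656-68790465, with 105 reads (85.9 to 127.1) of 796 and a fold of 6.26. ZFP36 had summits of 35 and 49 reads of 416 and 419. All 5 of these peaks were among the 11 of the 64 with 35 or more reads, where ZFP36 and CNOT1 tie at 35, although none of the 5 reached a fold of 7. Peaks at least 1000 bases wide numbered 3 of 64 (4.69%, Wilson interval 1.61 to 12.9%) against 1.70% in all coding genes, and all 3 were in this family, at 1563 bases in ZFP36, 1810 in ZFP36L1 and 1654 in ZFP36L2. The next widest peaks fell just under this cut, at 928 bases in SMG5 and 896 in UPF1. Peaks covered 79.1% of the span of ZFP36, 48.4% of ZFP36L2 and 21.1% of ZFP36L1, against at most 6.56% in any of the other 26 genes. Such a share depends on gene length, and these spans are short, at 2561, 4205 and 8589 bases in that order. The median length of the 29 genes was 47069 bases. In bases, the peaks covered 2027, 2036 and 1810, against 2484 in SMG5 and 2227 in SMG1. The same share in other coding genes is not given here.

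ELAVL1, also known as HuR, binds the same kind of element and is known to stabilise mRNAs. It had 3 peaks over 47069 bases, of 14 reads (7.65 to 23.5), 27 (17.8 to 39.3) and 33 (22.7 to 46.3), all on the minus strand. These intervals lie below those of ZFP36L1 and ZFP36L2, and those of 27 and 33 reads overlap the interval of the 35 reads in ZFP36 (24.4 to 48.7). The last 2 lay 437 bases apart, at chr19:7963398-7963705 and chr19:7962623-7962960, and the one of 14 reads lay at the other end of the gene.

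**Figure D2:**
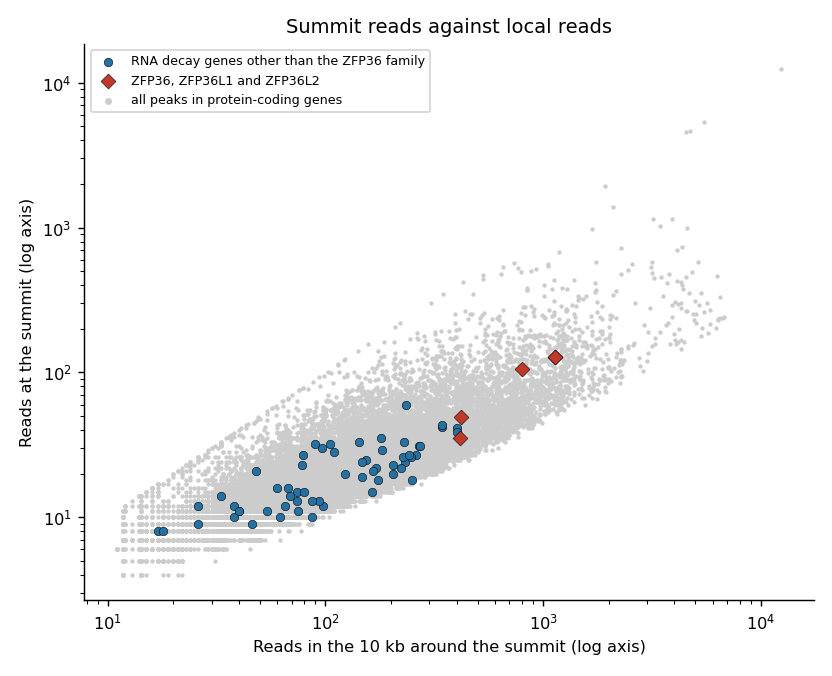
Reads at the summit against reads in the 10 kb around it, both on log axes, for the 64 peaks in RNA decay genes (blue, with the ZFP36 family as red diamonds) and for the 19265 peaks in coding genes (grey). The ZFP36 family lies at 416 to 1132 reads in 10 kb, while CNOT3 and UPF2 lie at the left with 17 and 18 reads in 10 kb.

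The strand of 25 of the 29 genes could be read from RefSeq. Of the 51 peaks in those genes, 50 lay on the strand of the gene (98.0%, Wilson interval 89.7 to 99.7%), the exception being the peak in SMG5 and TMEM79. Over all coding genes with a listed strand, 5.69% of peaks lay on the opposite strand. In CNOT1, CNOT7, ELAVL1 and ZFP36L2, whose strand was not used here, all 13 peaks lay on the minus strand. In all, 10 of the 64 peaks (15.6%, Wilson interval 8.71 to 26.4%) were also centred in another gene, where the share over coding-gene peaks was 12.3%.

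The share of peaks at gene starts was close to that of coding genes at large. Of the 51 peaks with a listed strand, 14 lay within 1000 bases of the start (27.5%, Wilson interval 17.1 to 40.9%), where the share over all coding genes was 25.5%. By gene, 14 of 23 had a start peak (60.9%, Wilson interval 40.8 to 77.8%), and the share over coding genes with a peak on their own strand was 58.9%. The 14 were CNOT6, CNOT6L, PAN3, DCP1B, XRN2, UPF1, UPF2, UPF3B, SMG1, SMG6, EXOSC3, EXOSC10, DIS3 and ZFP36. CNOT7, ZFP36L2 and ELAVL1 had a peak at the corresponding end if they run on the strand of their peaks. Within 1000 bases of the downstream end lay 5 of 51 peaks (9.80%, Wilson interval 4.26 to 21.0%), in EDC4, UPF1, SMG5 (2 of the 5) and ZFP36, where the share over all coding genes was 15.5%. By gene this was 4 of 23 (17.4%, Wilson interval 6.98 to 37.1%), and the share over all coding genes was 33.9%. Both intervals hold the share over all coding genes, and no difference was tested.

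**Figure D3:**
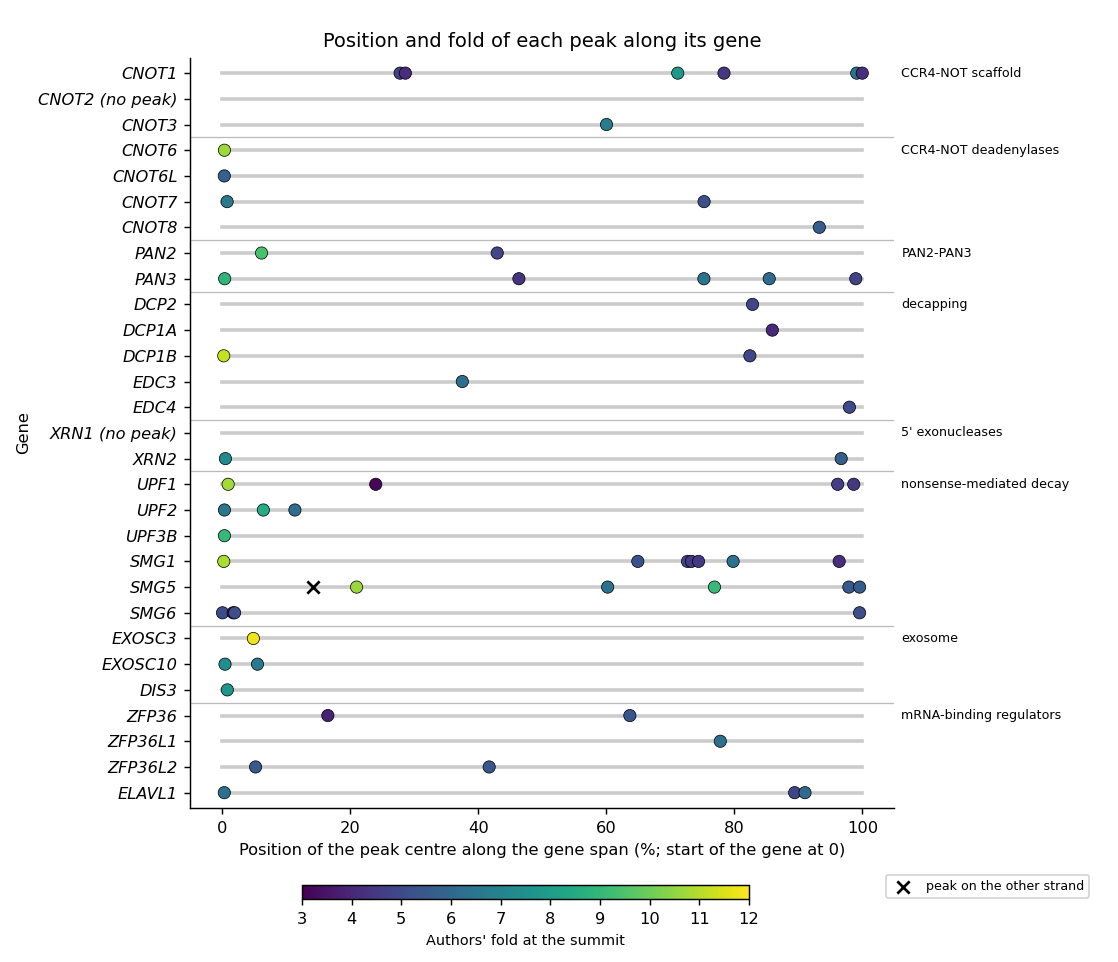
Position of each of the 64 peak centres along its gene, in percent of the span from the start, coloured by the authors' fold, with a cross for the SMG5 peak on the other strand. For CNOT1, CNOT7, ZFP36L2 and ELAVL1 the direction was taken from the strand of the peaks. The lightest points, with folds of 10.6 to 11.8, lie at the starts of EXOSC3, DCP1B, SMG1, UPF1 and CNOT6 and, in SMG5, 8884 bases from the start of the span, beside another listed start.

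Most of the highest folds were at starts. Of the 10 peaks with the highest folds, from 11.8 down to 8.85, 7 lay within 1000 bases of the start of the gene span. The others were 2 in SMG5 and the one in PAN2 that lay 1052 bases from the start of its span. How often coding-gene peaks of equally high fold lie at starts is not given here. Against the nearest start that RefSeq lists for the gene, the upstream edge lay 73 bases inside for the SMG5 peak at a fold of 10.6, 550 for the PAN2 peak and 23702 for the SMG5 peak at a fold of 9.06. The median fold of the 14 start peaks was 8.29 (binomial interval 5.77 to 10.9), against 5.33 (4.91 to 6.15) for the 37 others. Their summits had a median of 20.0 reads (12 to 33), against 21 (13 to 26) for the others. The reads in the 10 kb around them had a median of 73.0 (38.0 to 148.0), against 123.0 (87.0 to 223.0) for the others. In the decay genes the intervals of the start peaks overlap those of the others in all 3 measures. Over all coding genes start peaks had a median fold of 7.47 (7.36 to 7.59) and other peaks 5.56 (5.53 to 5.61), with 80.0 and 147.0 reads in 10 kb. Near a start the 10 kb reach beyond the gene, and the part of this in the higher folds was not tested.

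Narrow peaks were 11 of the 64 (17.2%, Wilson interval 9.88 to 28.2%), counting those at most 2 bases over the smallest width of 200 bases, where the share over coding-gene peaks was 17.5%. They held 9 to 31 reads and lay in CNOT1 (2), CNOT7 (2), XRN2, SMG1 (3), SMG6 and EXOSC10 (2). Neighbouring peaks on the same strand of a gene were a median of 7820 bases apart over 36 neighbours, and 9 of these lay under 1000 bases apart.

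**Figure D4:**
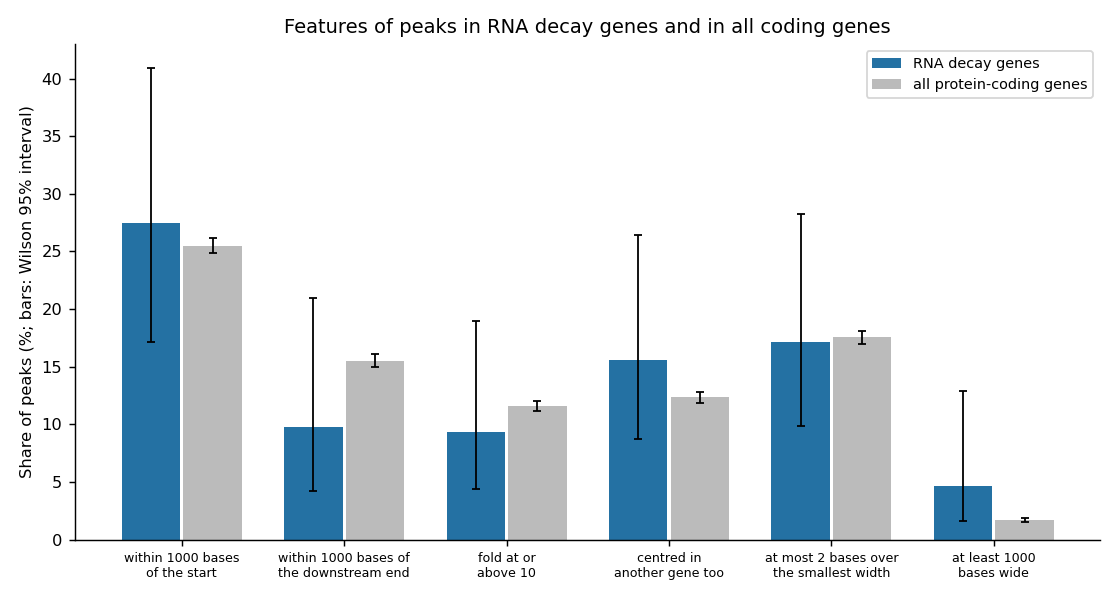
Shares of peaks with 6 features in RNA decay genes (blue) and in all protein-coding genes (grey), in percent, with Wilson intervals at 95%. The blue interval holds the grey share for all 6 features, for peaks at least 1000 bases wide only just, with a lower bound of 1.61% against 1.70%.

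Most other genes of RNA decay also had peaks. A list of 53 further genes took in the remaining CCR4-NOT, exosome and LSM subunits, poly(A)-binding proteins, and regulators such as the TOB and RC3H proteins. Of these, 39 had a peak (73.6%, Wilson interval 60.4 to 83.6%), with 96 peaks in all, where the share over all protein-coding genes was 41.6%. This list too was chosen with earlier results known, so its share is a description only. The median fold of the 96 peaks was 5.68 (5.28 to 6.36), against 5.93 over all coding-gene peaks. Their median summit held 21.5 reads (19.0 to 24.0), against 22 over all coding-gene peaks. PUM2, a Pumilio protein that binds mRNAs and represses them, had 7 peaks with up to 26 reads. TOB2, an antiproliferative protein that binds CCR4-NOT, had 5 with up to 27 reads. CNOT9, PABPC1, PATL1 and RC3H1 had 4 each, of which PABPC1, the main cytoplasmic poly(A)-binding protein, was deepest at 376 reads. The deepest of the 64 summits, at 128 reads in ZFP36L2, lay below that of PABPC1.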

How the data were processed

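Per the submitters' processing notes, reads were trimmed and aligned to hg38 and peaks called with tools that include cutadapt, BWA and MACS2, with versions, settings and pooling of replicates not given in the sources used here. The deposited list gives for each peak a fold (the ratio of summit to background), a −log10 p and −log10 q, and a score that equals the integer part of 10 times −log10 q in all 21031 deposited peaks. Plus and minus strands were called apart, as the deposited names show. Per the labels' protocols, ultraviolet light of 254 nm was given at 400 mJ/cm2.

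Summit reads k and background b were solved from fold = (k + 1)/(b + 1) together with the upper Poisson tail beyond k. The p so obtained met that of the authors (tolerance 0.0001 on the −log10 scale, plus 0.00001 of the value) in 21028 peaks, and the background is given as reads in 10 kb. In some coding-gene peaks this background did not come out whole, so there it is not a count of reads. On 1945 simulated peaks made with these same formulas, the summit reads were recovered in 100%. That checks the solving alone and cannot show that the authors' values follow these formulas. Shares have Wilson intervals and medians the binomial interval of order statistics. Peaks of 1 list are not replicates, so no p-value was computed. The genes, the further list and the naming rule (every gene, with its deepest peak, the 10 highest folds, the 10 deepest summits, narrow peaks and peaks on the other strand) were chosen with earlier results of these data known. Gene strand came from the RefSeq start windows, which cover 15842 of 20033 coding genes. Exons were not used here. Values of some single genes of the further list are not reported here. Python 3.11.15, pandas 2.3.3, SciPy 1.17.1 and matplotlib 3.10.9 were used.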

Additional observations from a re-analysis of the deposited data

How the results depend on the processing

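Assigning peaks by any overlap of 1 base or by the summit, leaving out narrow peaks, using windows of 500 or 2000 bases, and, chosen after seeing the data, taking unlisted strands from the peaks or measuring from the nearest listed start kept every value within the interval of its main value, or a count within 1.5 times. Restricted to peaks whose −log10 q was at least the list's median, 18 genes kept a peak, with 28 peaks (0.150 per 10 kb). The median fold was then 6.87, the median summit 31.5 reads, 100% of peaks lay on the gene strand and 21.7% near the downstream end. With only summits of 20 or more reads, 15 genes kept a peak, with 36 peaks (0.193 per 10 kb), a median summit of 29.5 reads, 100% on the gene strand and 8.33% also in another gene. With only peaks in no other gene, 100% lay on the gene strand. These filters remove shallow peaks or the overlap with TMEM79 by construction. The share of all coding genes that keep a peak under them is not given here. Shares in exons were not run, since no exon annotation was used here. No paired analysis was possible because the list holds no values of single libraries. Depth limits most values, since the median summit held 21.5 reads.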
